A study of Homo sapiens with 6 samples.

Results

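The genes described here are 10 targets of the transcriptional co-activators YAP and TAZ and their DNA-binding TEAD partners: CTGF, CYR61, ANKRD1, AMOTL2, AXL, CRIM1, FJX1, MYOF, NT5E and PTPN14. They were taken by symbol, and each symbol had 1 row among the 58735 genes of the deposited tables. RNA was sequenced from MUM2B cells, a line that the labels give as human melanoma, in 2 groups of 3 libraries each: cells that stably carry an empty vector and cells that stably overexpress LACTB. LACTB itself is a mitochondrial protein related to bacterial serine beta-lactamases, and the comparison asks which genes differ when its level is raised. Both groups were grown in RPMI medium with serum. The sources used here do not give the vector, its promoter or whether either population is 1 clone.

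YAP and TAZ carry signals from cell contact, cell shape and tension to the nucleus. The kinases of the Hippo pathway phosphorylate them and hold them in the cytoplasm; when they are free they enter the nucleus and bind TEAD proteins, which recognise a short DNA word, GGAATG, read CATTCC on the other strand. CTGF, CYR61 and ANKRD1 are the targets most often measured as a readout of that activity, while AMOTL2 and PTPN14 encode proteins that restrain YAP and so form a feedback.

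The TEAD word is shown first because the 2 targets that hold it more than once here, CTGF and ANKRD1, went in opposite directions. RefSeq promoters (GRCh38.p14) were matched for 8 of the 10 genes, with 2 start sites each for AMOTL2 and AXL; CYR61 and CRIM1 were not matched. In the 250 bases before the start site, CTGF, which RefSeq calls CCN2, held 3 copies, beginning 169, 104 and 95 bases before the start at chr6:131951372 on the minus strand. The window is chr6:131951373-131951622, written 5′ to 3′ on the gene's strand with each copy in capitals.
CTGF promoter: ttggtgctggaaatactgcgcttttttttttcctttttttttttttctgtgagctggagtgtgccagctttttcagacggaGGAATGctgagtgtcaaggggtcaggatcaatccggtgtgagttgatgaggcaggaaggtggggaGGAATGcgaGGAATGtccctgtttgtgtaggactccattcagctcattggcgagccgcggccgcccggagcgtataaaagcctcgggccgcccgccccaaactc

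ANKRD1 held 2 copies, beginning 220 and 128 bases before its RefSeq start at chr10:90921087 on the minus strand. The nearer copy lies within an exon of a longer ANKRD1 transcript in GENCODE 29, whereas the farther one lies outside all of the gene's exons there. AMOTL2 held 1 copy at its inner start (69 bases before chr3:134374447), which is also exonic in a longer transcript. PTPN14 held 1 copy 200 bases before its start, and AXL 1 copy 212 bases before the second of its RefSeq starts. Both copies lie outside the exons of their gene but within the span of that gene in GENCODE 29. The 30 bases around each copy are given on the gene's strand, with the word in capitals.
ANKRD1, chr10:90921290-90921319: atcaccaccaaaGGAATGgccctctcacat
ANKRD1, chr10:90921198-90921227: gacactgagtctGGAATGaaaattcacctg
AMOTL2, chr3:134374499-134374528: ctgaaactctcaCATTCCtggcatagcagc
PTPN14, chr1:214551785-214551814: cctcccgggccgCATTCCtccccgcccccg
AXL, chr19:41226531-41226560: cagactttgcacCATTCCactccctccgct

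The word was not in these windows of FJX1, MYOF and NT5E, nor before the other starts of AMOTL2 and AXL. Of 35116 RefSeq promoters cut to the same length, 11.9% held at least 1 copy, 0.940% at least 2 and 0.0826% at least 3. The AP-1 word TGANTCA, in which N is any base and whose first bases can be shared with the end of the TEAD word, was in 6.57% of all these promoters and, among the 10 windows of the target genes, in that of ANKRD1 alone. A match is a description of the sequence and does not show that a factor binds there.

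The LACTB level matched every label: it lay between 3.39 and 4.71 FPKM in the empty vector libraries and between 161.5 and 173.9 FPKM in the LACTB libraries. FPKM, the unit the authors deposited, scales the fragments of a gene to the length of its exons and to a size of the library. The libraries held 16978799 to 18395631 reads in genes. The library size implied by the values was 0.983, 0.986 and 1.01 of those reads in empty vector replicates 1 to 3. It was 1.02, 1.01 and 1.02 of them in LACTB replicates 1 to 3. Empty vector replicate 3 stood apart from its group, with 3.61% of its reads from mitochondrial genes against 5.54% and 5.62% in the other 2 and 4.65% to 5.04% with LACTB. Melanocyte markers were close to absent: all 8 of 8 had a mean under 1 FPKM, with S100B at 0, and they summed to 1.26 to 1.34 FPKM with empty vector and 1.70 to 2.13 FPKM with LACTB. All 7 fibroblast and all 5 leukocyte markers were also under 1 FPKM. Of the 5 endothelial markers CDH5 alone was above it, and the list summed to 47.7 to 52.5 FPKM with empty vector and 14.0 to 14.8 FPKM with LACTB. Of the 5 epithelial markers 3 were under 1 FPKM. That list, carried by KRT8 and KRT18, summed to 340.2 to 351.8 FPKM with empty vector and 304.2 to 311.3 FPKM with LACTB. The part of these differences in the results below was not tested. In bulk RNA, fewer cells that express a gene and less RNA per cell cannot be told apart.

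All 10 targets were expressed above 1 FPKM and entered the test. With LACTB 6 fell, 3 rose and 1 was not called. The test was limma on log2(FPKM + 1), and a call needed an adjusted p under 0.05 by Benjamini-Hochberg over 11875 tested genes. Of those genes 14.8% rose and 17.2% fell, together 32.0%. The 9 called targets also had groups that did not overlap, 6 with LACTB lower and 3 with LACTB higher, a pattern that 25.1% and 22.3% of all tested genes showed, 47.4% in either direction. Without empty vector replicate 3, 6 targets fell and 3 rose again. The median log2 difference was -0.37 over the 10 targets and -0.01 over all tested genes.

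**Figure D1:**
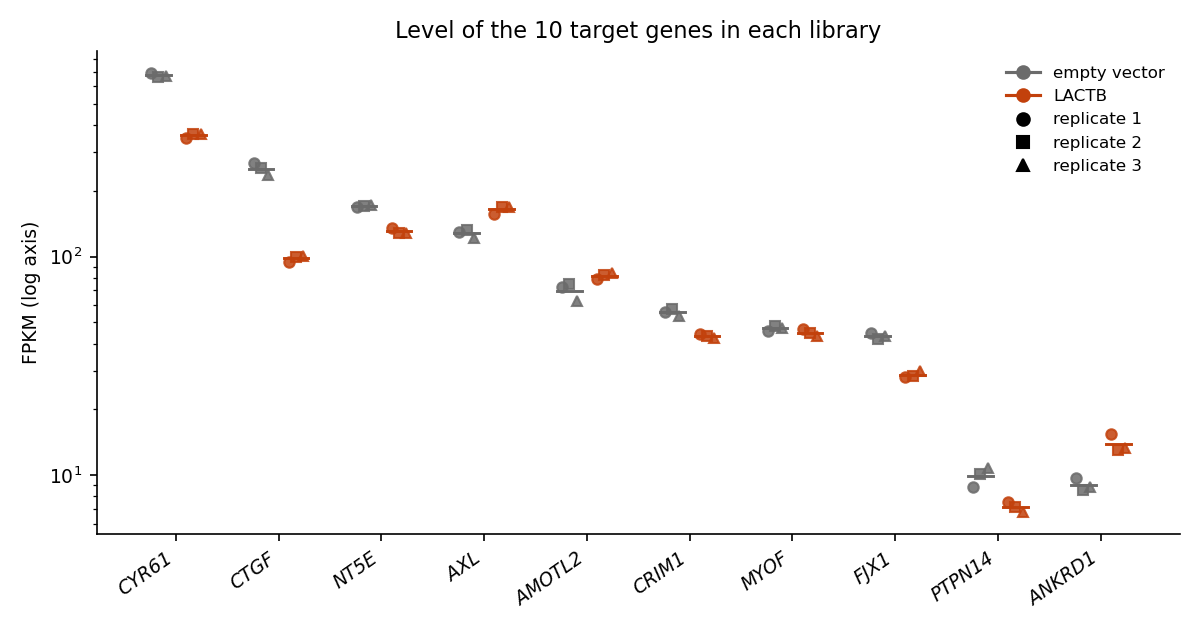
FPKM of each target gene (y axis, logarithmic) in the 3 empty vector libraries (grey) and the 3 LACTB libraries (orange), ordered by the empty vector mean, with symbols for the replicate number and bars for the group means. CTGF and CYR61 drop furthest, ANKRD1, AXL and AMOTL2 lie higher with LACTB, and the groups of MYOF overlap.

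CTGF and CYR61 encode secreted matricellular proteins that bind integrins and growth factors, and are also called CCN2 and CCN1. CTGF (ENSG00000118523, chr6:131948176-131951373 on the minus strand in GRCh38) stood at 268.5, 253.5 and 235.5 FPKM in empty vector replicates 1 to 3 and at 93.9, 99.7 and 101.0 FPKM in LACTB replicates 1 to 3. The lowest empty vector library was thus above every LACTB library by a wide margin, on 3979 to 11048 reads per library. CTGF fell 2.57-fold by the ratio of the group means, a log2 difference of -1.35 (95% interval -1.49 to -1.21; limma, adjusted p = 1.27e-05). An antisense gene, AL133346.1, shares 195 of the exonic bases of CTGF (8.34%) and was listed at 0 in every library. Of all tested genes, 0.547% had a larger difference of log2(FPKM + 1) in either direction, a scale that understates the change of low genes. CYR61 (ENSG00000142871, chr1:85580761-85583962, plus strand) stood at 692.7, 665.1 and 671.2 FPKM with empty vector and at 348.0, 363.2 and 362.8 FPKM with LACTB. It fell 1.89-fold (log2 difference -0.92, 95% interval -1.02 to -0.81; limma, adjusted p = 2.31e-05) and, at 15341 to 29912 reads per library, was the most deeply read of the 10.

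The pair did not fall by the same factor. The ratio of CTGF to CYR61 within a library, which does not depend on how that library was scaled, was 0.388, 0.381 and 0.351 with empty vector and 0.270, 0.275 and 0.278 with LACTB. Every LACTB ratio was below every empty vector ratio, a log2 difference of -0.44. The two-sided exact permutation test over the 6 libraries gave p = 0.1, the smallest that 3 against 3 can give. The third CCN family member with measurable RNA, NOV, went the other way, from 7.08 ± 0.768 to 8.54 ± 0.378 FPKM (SD, n = 3 each; limma, adjusted p = 0.0446). That call was lost when any 1 library other than empty vector replicate 2 was left out (adjusted p = 0.074 to 0.122). WISP1 and WISP3 were under 1 FPKM, WISP2 had no reads, and none of them was tested.

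ANKRD1 encodes an ankyrin repeat protein of the nucleus and the sarcomere that responds to stretch. The gene (ENSG00000148677) lies at chr10:90912096-90921276 on the minus strand. Its libraries lay at 9.71, 8.55 and 8.86 FPKM with empty vector and at 15.4, 13.0 and 13.3 FPKM with LACTB. Even the lowest LACTB library exceeded the highest empty vector library, although LACTB replicate 1 was set above the other 2. ANKRD1 rose 1.54-fold (log2 difference 0.57, 95% interval 0.39 to 0.74; limma, adjusted p = 0.00165). At 307 to 551 reads per library it was the least deeply read target. Its relatives ANKRD2 and ANKRD23 were under 1 FPKM and not tested.

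The targets that encode membrane proteins did not move together. AXL, a receptor tyrosine kinase of the TAM family, stood at 129.0, 132.6 and 121.8 FPKM with empty vector and at 156.7, 168.0 and 167.6 FPKM with LACTB. The gene (ENSG00000167601) lies at chr19:41219203-41261766 on the plus strand. It rose 1.28-fold (log2 difference 0.36, 95% interval 0.24 to 0.48; limma, adjusted p = 0.00233), with no overlap of the groups. An antisense gene, AC011510.1, shares 67 bases with the exons of AXL (1.30% of them) and averaged 4.81 FPKM in the empty vector libraries and 1.90 FPKM in the others, the opposite direction. GAS6, the ligand of AXL, fell 1.72-fold, from 22.2 ± 1.07 to 12.9 ± 0.960 FPKM (SD, n = 3 each; limma, adjusted p = 0.000264). The other TAM receptor tested, TYRO3, stood at 3.32 ± 0.202 and 3.21 ± 0.0745 FPKM (SD, n = 3 each), and MERTK was under 1 FPKM. The receptor gene was therefore higher and its ligand gene lower in the same libraries.

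NT5E encodes the surface enzyme CD73, which makes adenosine from AMP (ENSG00000135318, chr6:85449584-85495791, plus strand). It had one of the tightest empty vector groups of the 10, at 168.0, 169.7 and 171.4 FPKM, against 134.4, 128.4 and 128.2 FPKM with LACTB. NT5E fell 1.30-fold (log2 difference -0.38, 95% interval -0.47 to -0.29; limma, adjusted p = 0.000649). The genes around it in adenosine handling, ENTPD1, ADORA2A, ADORA2B and ADA, were all under 1 FPKM and were not tested. CRIM1, a transmembrane protein with cysteine-rich repeats that binds bone morphogenetic proteins, stood at 55.6, 57.8 and 53.3 FPKM with empty vector and at 44.0, 43.2 and 42.2 FPKM with LACTB. The gene (ENSG00000150938) lies at chr2:36355926-36551135 on the plus strand. CRIM1 fell 1.29-fold (log2 difference -0.36, 95% interval -0.46 to -0.25; limma, adjusted p = 0.00126), again with no overlap.

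MYOF, the membrane repair and fusion protein myoferlin, was the target that was not called (ENSG00000138119, chr10:93306429-93482317, minus strand). It stood at 45.5, 48.2 and 47.0 FPKM with empty vector and at 46.4, 44.5 and 43.1 FPKM with LACTB, so the groups overlapped. The log2 difference was -0.07 with a 95% interval from -0.17 to 0.03 (limma, adjusted p = 0.278), which bounds a change in either direction but does not show that the groups were alike. Its relative DYSF, dysferlin, rose from 5.55 ± 0.0744 to 6.65 ± 0.426 FPKM (SD, n = 3 each; limma, adjusted p = 0.0186). That call was lost without empty vector replicate 2 (adjusted p = 0.0527) or without LACTB replicate 3 (adjusted p = 0.0514).

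FJX1 encodes the human counterpart of Four-jointed, a secretory pathway kinase of the planar polarity system that acts with the giant cadherins FAT4 and DCHS1. FJX1 stood at 44.7, 42.0 and 43.3 FPKM with empty vector and at 28.2, 28.6 and 29.8 FPKM with LACTB. It fell from a mean of 43.4 ± 1.33 to 28.9 ± 0.859 FPKM (SD, n = 3 each; log2 difference -0.57, 95% interval -0.67 to -0.47; limma, adjusted p = 0.000146), the third largest fall of the 10, from a gene with a single exon (ENSG00000179431, chr11:35618419-35620868, plus strand). FAT4 fell from 1.88 ± 0.166 to 1.34 ± 0.0163 FPKM (SD, n = 3 each; limma, adjusted p = 0.0202), a call lost when any 1 library other than empty vector replicate 1 was left out (adjusted p = 0.0537 to 0.0604). DCHS1 was under 1 FPKM.

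The pair of feedback regulators divided. PTPN14, a non-receptor tyrosine phosphatase that binds YAP, stood at 8.85, 10.1 and 10.7 FPKM with empty vector and at 7.51, 7.14 and 6.77 FPKM with LACTB. The gene (ENSG00000152104) lies at chr1:214348696-214552449 on the minus strand. PTPN14 fell 1.38-fold (log2 difference -0.42, 95% interval -0.59 to -0.25; limma, adjusted p = 0.00569), and its groups did not overlap. AMOTL2, an angiomotin that holds YAP at junctions, stood at 72.4, 74.7 and 62.3 FPKM with empty vector and at 78.8, 82.7 and 83.6 FPKM with LACTB. The gene (ENSG00000114019) lies at chr3:134355874-134375479 on the minus strand. Empty vector replicate 3 was the low library of its group, and the groups did not overlap. AMOTL2 rose 1.17-fold (log2 difference 0.23, 95% interval 0.06 to 0.40; limma, adjusted p = 0.046), the smallest and least stable of the 9 calls. The log2 difference was 0.15 without empty vector replicate 3 (adjusted p = 0.0435). The call was lost without empty vector replicate 1 (adjusted p = 0.067), LACTB replicate 1 (0.0698), LACTB replicate 2 (0.128) or LACTB replicate 3 (0.128). The relatives PTPN21 and AMOTL1 were not called, at 4.62 ± 0.186 against 3.90 ± 0.337 FPKM and 8.57 ± 0.679 against 7.84 ± 0.0957 FPKM (SD, n = 3 each), and AMOT had no reads. Of the exonic bases of PTPN14, 1213 (6.47%) are shared with the antisense pseudogene KRT18P12, at 0 in both group means, and 151 with AL929236.1. AMOTL2 shares 187 with RPL39P5 and CRIM1 177 with AC007378.1, genes that averaged under 1 FPKM. How reads in such shared bases were assigned is not stated in the labels. Of 20 relatives and partners of the targets, 8 were tested, of which 2 rose and 2 fell, beside 14.8% and 17.2% of all tested genes.

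**Figure D2:**
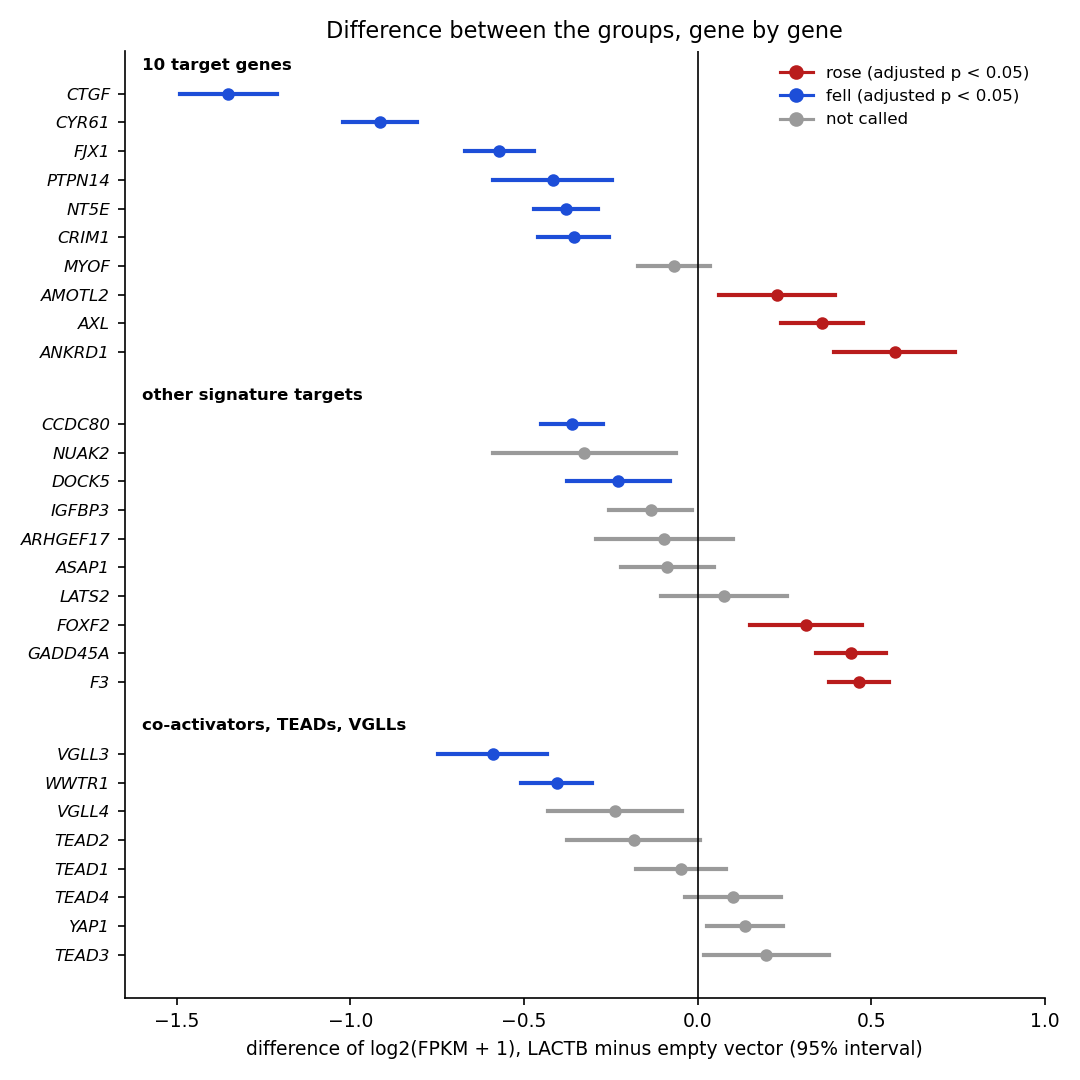
Difference of log2(FPKM + 1) between LACTB and empty vector (x axis) with its 95% interval from limma, for the 10 target genes, the 10 tested genes of the rest of the signature and the 8 tested co-activator, TEAD and VGLL genes. Intervals are not adjusted for the number of genes, so some grey intervals, such as that of YAP1, lie off 0; red genes rose, blue genes fell, and CTGF lies furthest from 0.

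Since FPKM is scaled to gene length, levels of different genes can be roughly set beside each other. The length is that of all annotated exons of a gene, such as 18756 bases for PTPN14 and 1979 for ANKRD1. Which transcript was expressed was not determined, so the order depends on these lengths. With empty vector the order of mean FPKM from the top was CYR61, CTGF, NT5E, AXL, AMOTL2, CRIM1, MYOF, FJX1, PTPN14 and ANKRD1, and the ranges over 3 libraries overlapped between neighbours for PTPN14 and ANKRD1 only. With LACTB the order was CYR61, AXL, NT5E, CTGF, AMOTL2, MYOF, CRIM1, FJX1, ANKRD1 and PTPN14, with overlap for MYOF and CRIM1 only. CTGF thus moved from place 2 to place 4, and both AXL with NT5E and ANKRD1 with PTPN14 changed places.

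The exchanges can be read within each library, in ratios that were chosen after the values were seen. The ratio of AXL to NT5E was 0.768, 0.781 and 0.710 with empty vector and 1.17, 1.31 and 1.31 with LACTB. The ratio of ANKRD1 to PTPN14 went from 0.924 ± 0.151 to 1.95 ± 0.115 (SD, n = 3 each). The groups did not overlap in either ratio. The 10 targets summed to 1425 to 1495 FPKM with empty vector and to 953.4 to 978.5 FPKM with LACTB. Nearly all of that drop came from CTGF and CYR61, whose sum went from 928.8 ± 28.7 to 456.2 ± 12.3 FPKM. The other 8 summed to 532.1 ± 12.5 and 513.9 ± 2.18 FPKM (SD, n = 3 each), 0.966 of the empty vector mean. These sums did not overlap either, at 518.8 to 543.6 FPKM with empty vector and 511.4 to 515.6 FPKM with LACTB. Rises and falls offset each other within them: the mean of AXL went from 127.8 to 164.1 FPKM and that of NT5E from 169.7 to 130.4 FPKM.

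**Figure D3:**
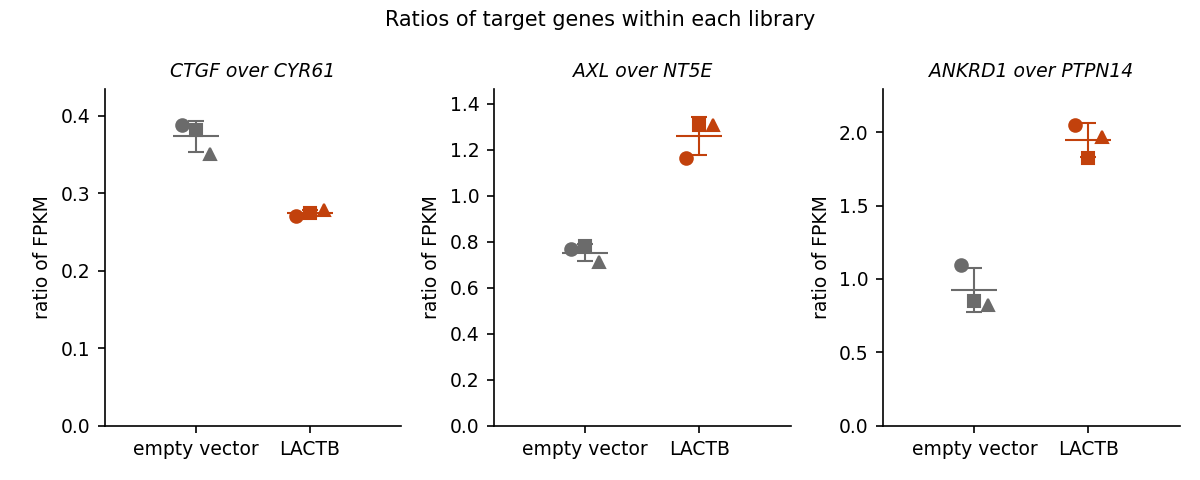
Ratio of FPKM between pairs of target genes (y axes from 0) in each of the 3 empty vector (grey) and 3 LACTB (orange) libraries, with group mean and SD and symbols for the replicate number as in the plot of levels. CTGF over CYR61 is lower with LACTB, while AXL over NT5E and ANKRD1 over PTPN14 are higher, with no overlap in any panel.

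Within the distribution of all tested genes, CTGF and CYR61 were far out and the other targets nearer the bulk. A larger log2 difference in size was found for 1.60% of tested genes in the case of CYR61, 5.05% for FJX1, 5.11% for ANKRD1 and 10.5% for PTPN14. For NT5E, AXL and CRIM1 that share was 13.0%, 14.5% and 14.7%, for AMOTL2 30.8% and for MYOF 73.7%. The scale understates the change of low genes, so an order by fold can differ from this one. ELFN2, a gene with a lower level than CYR61, fell by a larger fold than CYR61 but by a smaller log2 difference. ANKRD1 rose by a larger fold than FJX1 fell, yet stands behind FJX1 here. The shares by fold were not computed.

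**Figure D4:**
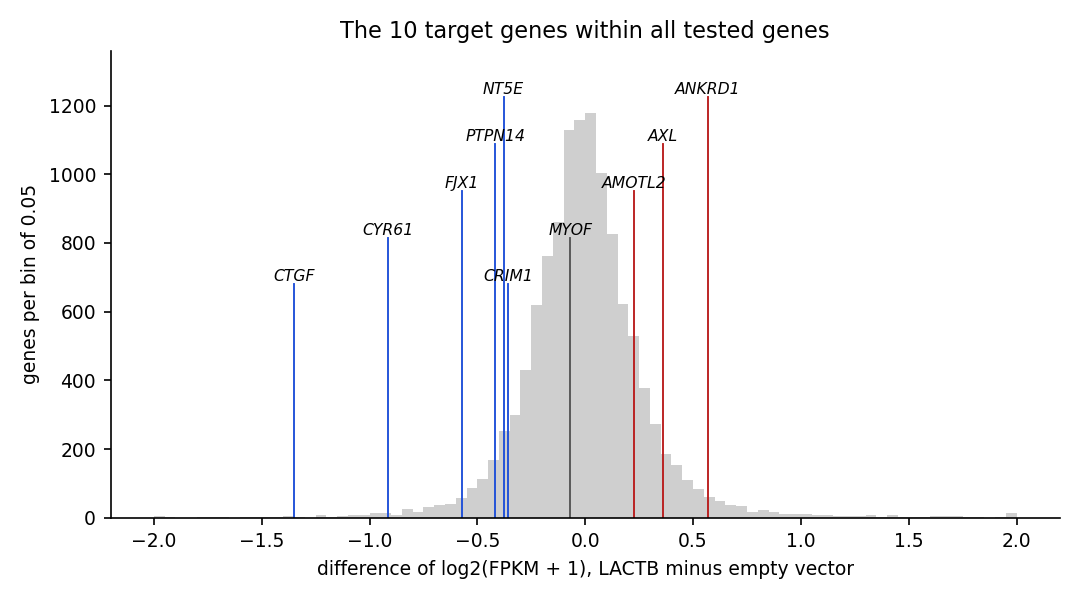
Histogram of the log2(FPKM + 1) difference of all 11875 tested genes (x axis, LACTB minus empty vector; y axis, genes per bin of 0.05), with values beyond 2 in size gathered in the outermost bins. Lines, whose heights only keep the names apart, mark the 10 target genes, blue for those that fell, red for those that rose and grey for MYOF; CTGF and CYR61 stand in the thin left tail.

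The published target signature from which the 10 come holds 12 other genes. Of 10 that were tested, 3 rose, 2 fell and 5 were not called, beside 14.8% risen and 17.2% fallen among all tested genes, and their median log2 difference was -0.09 against -0.01. FOXF2, a forkhead transcription factor, rose from 3.70 ± 0.261 to 4.84 ± 0.374 FPKM (SD, n = 3 each; limma, adjusted p = 0.014), with an adjusted p of 0.00433 to 0.052 over 18 alternatives. F3, which encodes tissue factor, and GADD45A, a stress gene that slows the cell cycle, with log2 differences of 0.46 and 0.44, were the other 2 that rose. CCDC80, a secreted matrix protein, fell 1.29-fold from 40.9 ± 1.03 to 31.6 ± 0.549 FPKM (SD, n = 3 each; limma, adjusted p = 0.000694). DOCK5, an exchange factor for Rac, fell from 6.38 ± 0.546 to 5.29 ± 0.147 FPKM (SD, n = 3 each; limma, adjusted p = 0.0307), a call lost when any 1 library other than empty vector replicate 1 was left out (adjusted p = 0.0578 to 0.0932). TGFB2 and RBMS3 had a mean under 1 FPKM.

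The co-activators YAP and TAZ, the TEADs and the VGLL cofactors form the complexes that bind these targets. Among 8 tested genes of that list, 2 fell and none rose, where 17.2% and 14.8% of all tested genes did, and the median log2 difference was -0.12. WWTR1, which encodes TAZ, stood at 14.5, 14.8 and 14.5 FPKM with empty vector and at 10.9, 11.2 and 10.3 FPKM with LACTB (log2 difference -0.41; limma, adjusted p = 0.000711). VGLL3, a cofactor that competes for TEADs, fell 1.61-fold from 7.75 ± 0.565 to 4.81 ± 0.323 FPKM (SD, n = 3 each; limma, adjusted p = 0.000938). YAP1 was not called, at 27.8, 29.9 and 29.3 FPKM with empty vector and 33.4, 31.5 and 31.0 FPKM with LACTB (log2 difference 0.14, 95% interval 0.03 to 0.25; limma, adjusted p = 0.0632), although its groups did not overlap. That outcome depended on the processing: YAP1 was past the threshold, as higher with LACTB, in 4 of 19 alternatives (limma, adjusted p = 0.030 to 0.179 over all of them). TEAD4 was the TEAD gene with the highest level, at 38.6 ± 2.14 and 41.5 ± 2.40 FPKM, followed by TEAD1 at 23.5 ± 1.36 and 22.7 ± 0.967 FPKM (SD, n = 3 each). TEAD2 and TEAD3 stood at 6.94 ± 0.487 against 6.01 ± 0.686 and 3.45 ± 0.217 against 4.11 ± 0.426 FPKM (SD, n = 3 each). The adjusted p of the 4 TEAD genes was 0.0913 to 0.546 (limma), and the groups of each overlapped.

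In the kinase arm of the Hippo pathway, 2 of 16 tested genes rose and 1 fell, beside 14.8% and 17.2% of all tested genes, and the median log2 difference was 0.05. NF2, which encodes the upstream scaffold merlin, fell from 6.59 ± 0.160 to 4.87 ± 0.188 FPKM (SD, n = 3 each; limma, adjusted p = 0.00151). MAP4K4, a kinase that acts on LATS1 and LATS2, rose from 43.4 ± 0.767 to 53.5 ± 0.874 FPKM (SD, n = 3 each; limma, adjusted p = 0.00129). STK3 rose 1.15-fold (limma, adjusted p = 0.0432), a call lost whichever library was left out (adjusted p = 0.0545 to 0.128). LATS1 and LATS2, the kinases that phosphorylate YAP and TAZ, were not called, LATS1 at 7.62 to 8.35 against 8.40 to 9.21 FPKM and LATS2 at 20.4 to 25.4 against 24.1 to 25.1 FPKM. These are RNA levels, and neither phosphorylation nor the place of YAP in the cell was measured here.

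The TEAD word in the promoter was set beside the calls for 8613 tested genes with a matched promoter, taking the start with the most copies. Without a copy, 15.7% of 7498 genes rose and 18.3% fell. With 1 copy, 13.1% of 1032 genes rose and 21.1% fell. With 2 copies or more, 13.3% of 83 genes rose and 27.7% fell, CTGF and ANKRD1 among those 83. No test was run on these shares. Promoters with and without the word may differ in other respects, and their base composition was not compared. It varied among windows that hold the word: those of CTGF and ANKRD1 are each 53.2% G and C, that of PTPN14 80.0%.

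**Figure D5:**
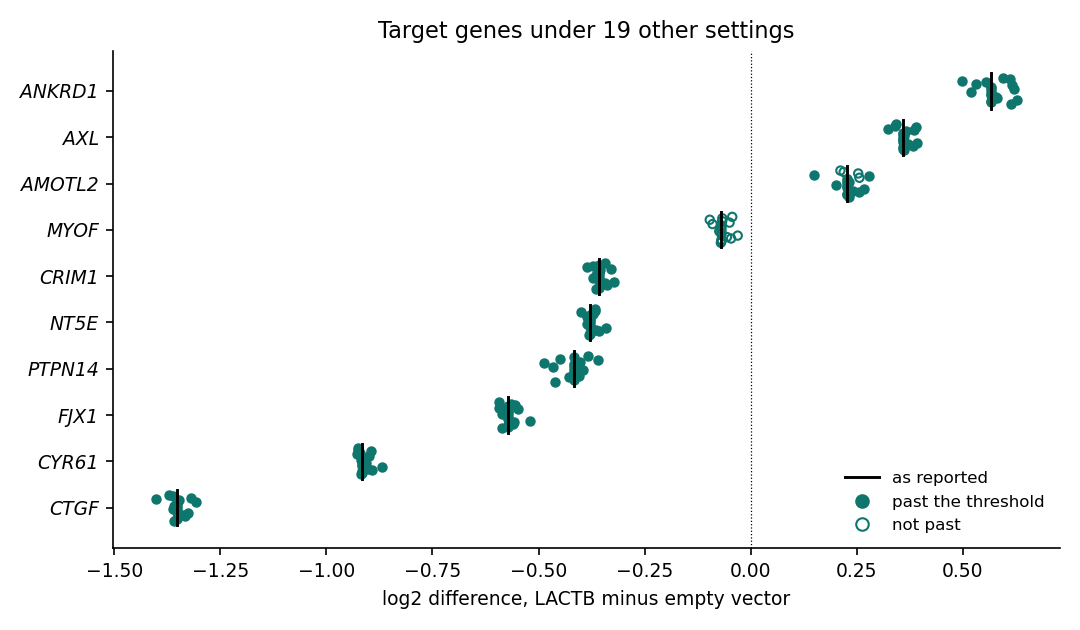
Log2 difference of each target gene (x axis, LACTB minus empty vector) as reported (black bar) and under 19 other settings of scaling, filter, spread model or libraries left out (points, filled where past the threshold). No target changes sign; AMOTL2 is the called gene with open points, and MYOF has open points throughout.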

How the data were processed

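The authors deposited 1 table of FPKM values per library. The tools named, per the submitters' processing notes and with no roles, are DESeq2 1.16.1, featureCounts 1.5.0-p3 and HISAT2 2.0.5, with build GRCh38. The annotation release, strand setting and treatment of multiply mapped reads were not given in the sources used here. All 58735 gene IDs matched GENCODE 29 (GRCh38), which gave positions and exon lengths. Multiplying FPKM by exon length and dividing by what 1 read is worth in that library gave whole reads for 100% of values above 0 (tolerance 0.1 reads), and so the depth.

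Differences were tested in R 4.3.3 by limma 3.58.1 (lmFit; eBayes with its trend option) on log2(FPKM + 1), for genes whose mean reached 1 FPKM, with Benjamini-Hochberg adjustment over all tested genes. A log2 difference on that scale understates the change of low genes, and a fold is the ratio of group means of FPKM. The fit was tested on simulated data. Labels do not say whether replicates were separate cultures, so p-values reflect no more than the spread among these libraries, which may be technical; no pair of one group agreed within sampling noise (chi-square of 2.02 to 12.4 per degree of freedom). The permutation test used SciPy 1.17.1. The 10 genes and the lists were chosen with earlier results of these data known. By rule, the text names the 10 genes, LACTB, YAP1, WWTR1, TEAD1 to TEAD4, and up to 3 risen and 3 fallen genes per list by smallest p. The rule adds genes that a sentence on a target turns on, and the 3 genes most like CTGF and CYR61. Some others are named outside the rule, such as LATS1, LATS2 and FOSL1, which were not called. Alternatives were another pseudocount, filters, TPM, 2 other scalings, other spread models, a replicate block, voom on the recovered reads, a threshold of 0.01, a table of protein-coding genes alone, and each library left out.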

Additional observations from a re-analysis of the deposited data

How the results depend on the processing

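Over 19 alternatives the count of target genes that fell was 6 in each, and the count that rose was 3 or, where AMOTL2 was lost, 2. No target changed sign, and 9 of the 10 kept their side of the threshold throughout. AMOTL2 lost its call in 8 settings: with 4 single libraries left out, without a filter on low values (adjusted p = 0.136), without the variance trend (0.0622), with the replicate block (0.0874) and at a threshold of 0.01 (0.046); its adjusted p ran from 0.00524 to 0.136. The number of all genes that rose was 1155 at a mean of at least 5 FPKM, where fewer genes are tested. As TPM, where 16070 genes pass the filter, 1615 rose and 1295 fell, so that risen genes were 55.5% of the calls against 46.3% as FPKM; the cause was not tested. With the threshold at 0.01 there were 847 that rose and 1004 that fell. With the replicate block, 1155 rose and 1324 fell. Of 21 called genes of the other lists, 13 kept their call in each alternative that tested them, and 8 lost it in at least 1 (FOXF2, DOCK5, STK3, NOV, FAT4, DYSF, JUND and CNN2). All of the 8 but JUND lost it with the replicate block (FOXF2 at adjusted p = 0.052). The replicate numbers gave no sign of pairing the libraries. Deviations from the group means correlated at -0.126, 0.0194 and -0.0438 between same-numbered libraries, and none correlated best with its own number. With 3 libraries per group this cannot exclude that same-numbered libraries share a culture or batch. With single libraries left out, 1132 to 1495 genes rose and 1392 to 1810 fell, the lowest of the former without LACTB replicate 2. The log2 difference of the CTGF to CYR61 ratio was then -0.49 to -0.41. ANKRD1, at 307 to 551 reads per library, is the target most limited by depth.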

Other observations

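AP-1 factors bind near TEADs at many enhancers. Of 7 tested genes, 2 rose and 2 fell, beside 14.8% and 17.2% of all tested genes, and the median log2 difference was -0.02. JUN stood at 119.9, 113.1 and 111.3 FPKM with empty vector and at 71.0, 80.9 and 81.3 FPKM with LACTB, a 1.48-fold fall (limma, adjusted p = 0.000933). JUNB rose 1.64-fold, from 19.6 ± 1.83 to 32.2 ± 4.80 FPKM, and ATF3 rose 1.73-fold, from 2.52 ± 0.497 to 4.35 ± 0.332 FPKM (SD, n = 3 each; limma, adjusted p = 0.00453 and 0.00531). JUND fell from 15.6 ± 2.53 to 11.8 ± 0.482 FPKM (SD, n = 3 each; limma, adjusted p = 0.0409), a call lost when any 1 library other than empty vector replicate 3 was left out (adjusted p = 0.0816 to 0.117). FOSL1, the AP-1 gene with the highest level, was not called and was low in empty vector replicate 3, at 295.9 FPKM against 409.2 and 399.6 FPKM in the other 2 and 376.8 to 405.1 FPKM with LACTB.

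SRF itself and genes of the actin cytoskeleton that answer to it formed a list of 10, of which 5 were tested. In that list 1 gene rose and 2 fell, beside 14.8% and 17.2% of all tested genes, with a median log2 difference of -0.08. SRF was not called. ACTA2, TAGLN, CNN1 and MYL9 had a mean under 1 FPKM, ACTG2 had no reads, and none of them was tested. FLNA, the actin crosslinker filamin A, rose 1.31-fold to 161.9 ± 4.40 FPKM, and VCL, the focal adhesion protein vinculin, fell 1.25-fold to 30.8 ± 0.317 FPKM (SD, n = 3 each; limma, adjusted p = 0.006 and 0.00327). CNN2, calponin 2, fell 1.20-fold (limma, adjusted p = 0.0459), a call lost when any 1 library other than empty vector replicate 3 was left out (adjusted p = 0.0907 to 0.128).

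The genes whose log2 values followed CTGF most closely over the 6 libraries were ELFN2, TUBA1A and C1QTNF6, each with a Pearson r of 0.999. Those closest to CYR61 were WNT7A, TUBA1A and CCBE1, also at 0.999. These correlations mostly follow the difference between the 2 groups. TUBA1A, an alpha-tubulin, is on both lists and went from 42.4 ± 1.67 to 21.8 ± 0.528 FPKM, and CCBE1, a secreted factor of lymphatic growth, from 24.0 ± 0.204 to 12.1 ± 0.228 FPKM (SD, n = 3 each).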
